A study of Rattus norvegicus with 458 samples.

Results

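miR-202-5p and miR-202-3p are the mature RNAs cut from the left and the right arm of the hairpin precursor of rat miR-202. The members were the rows carrying exactly these names, which are 2 of the 7534 names in the tables of counts per miRNA. They were also found on 261 of the 264294 isomiR sequences, 228 of them under miR-202-5p and 33 under miR-202-3p. An isomiR is a variant of a mature miRNA that begins, ends or reads differently from the most frequent form. Small RNA was sequenced from 23 tissues of Sprague Dawley rats aged 12 to 13 weeks, an outbred stock, with no treatment named in the labels, from 5 males (rats 2 to 6) and 5 females (rats 7 to 11). Dorsal root ganglion was sampled as 10 technical libraries of 2 pools, 1 per sex. After 14 runs that repeated a lane were left out, 444 of 458 runs were summed into libraries, each of 1 tissue of 1 rat apart from the ganglion. Testis (labelled Testicle, 5 males) and ovary (4 females, rats 7 to 10) are described in most detail, beside all other tissues.

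A miRNA precursor is a short hairpin that Drosha and Dicer cut on both arms, and as a rule only 1 of the released strands is loaded into an Argonaute protein in quantity. The loaded strand recognises its target mRNAs mainly through the seed, bases 2 to 8 from its 5′ end, so that a shift of the 5′ end changes the seed whereas a change of the 3′ end does not. The 3′ end can be trimmed, or lengthened by terminal transferases that add A or U. In vertebrates miR-202 is known as a miRNA of the gonads, where it has been described in Sertoli cells and early germ cells of the testis and in granulosa cells of the ovary.

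The RefSeq hairpin of rat miR-202 is shown to place both arms. It lies at chr1:204184345-204184416 on the minus strand of the GRCr8 assembly, which is not the build of the deposited tables. Capitals mark the RefSeq mature arms, of 19 bases on the 5p side and 21 bases on the 3p side.
hairpin: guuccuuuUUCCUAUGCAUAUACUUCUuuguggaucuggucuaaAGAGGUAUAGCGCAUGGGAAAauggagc

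Here the mature arms are written with the seed in capitals. No other of the 693 mature names in the RefSeq table shared bases 2 to 8 with either arm. Bases 2 to 7 of miR-202-3p, GAGGUA, were shared by 9 names, all of let-7 or miR-98, and let-7a-5p and let-7d-5p are printed beside it for that reason.
miR-202-5p: uUCCUAUGcauauacuucu
miR-202-3p: aGAGGUAUagcgcaugggaaa
let-7a-5p: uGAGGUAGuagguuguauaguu
let-7d-5p: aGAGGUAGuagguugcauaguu

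The reads gave a longer form of miR-202-5p than RefSeq lists. The most counted sequence over all libraries had 21 bases and held 51.5% of the counts of the arm, and the forms that differed most between the gonads ended elsewhere or carried an added base. They are printed in DNA letters as in the count tables, with the seed in capitals.
most counted, 21 bases: tTCCTATGcatatacttcttt
1 base shorter at the 3′ end: tTCCTATGcatatacttctt
2 bases shorter, the RefSeq form: tTCCTATGcatatacttct
1 base longer, as in the hairpin: tTCCTATGcatatacttctttg
with an added A not in the hairpin: tTCCTATGcatatacttcttta
with an added T not in the hairpin: tTCCTATGcatatacttctttt

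For miR-202-3p the most counted sequence had 20 bases and 25.8% of the counts. The form 1 base longer is the RefSeq form.
most counted, 20 bases: aGAGGTATagcgcatgggaa
1 base longer, the RefSeq form: aGAGGTATagcgcatgggaaa
1 base shorter: aGAGGTATagcgcatggga

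Total counts ranged from 376401 to 17725805 per library (median 4816409), and the 5 testis libraries were among the shallowest, with 376401 to 653651. Levels are given as CPM, counts of a name per 1000000 counts of its library. In 10 libraries the profile of all names correlated better, by more than 0.05, with another tissue than with the other libraries of the labelled tissue. They were 4 duodenum libraries (rats 2, 4, 7 and 11), 3 hippocampus libraries (rats 2, 6 and 7), and 1 each of adrenal (rat 8), ovary (rat 11) and uterus (rat 8). These libraries are kept out of the levels below and given separately, since 2 of them carried most of the miR-202 counts under labels other than testis, ovary and adrenal. As these are bulk samples, fewer cells of a type and less RNA per cell cannot be told apart.

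miR-202-5p was among the abundant miRNAs of the testis. The counts in rats 2 to 6 were 2230, 2118, 2766, 1716 and 1643, which are 4586, 5627, 4232, 3539 and 3858 CPM (mean 4369 ± 806 CPM, SD, n = 5). It ranked between 26 and 33 among all names of each testis library. In the ovaries of rats 7, 8, 9 and 10 the counts were 2161, 4900, 2868 and 2742, equal to 638, 786, 500 and 726 CPM (mean 662 ± 124, n = 4), and the rank was between 60 and 71. Every testis was higher than every ovary, and the ratio of the mean CPM was 6.59. In log2 this was 2.72. The median was 1.44 over the 889 names with counts in both gonads and a mean of at least 1 CPM there. A typical name was thus also higher in testis on this scale. How many other names also separated every testis from every ovary by level was not counted, for either arm.

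miR-202-3p was present in both gonads at about 1% of the counts of both arms. The testis libraries of rats 2 to 6 held 18, 26, 35, 12 and 11 counts, or 37.0, 69.1, 53.5, 24.8 and 25.8 CPM (mean 42.0 ± 19, n = 5). The ovaries of rats 7 to 10 held 22, 41, 34 and 26 counts, or 6.50, 6.57, 5.92 and 6.88 CPM (mean 6.47 ± 0.40, n = 4). The groups again did not overlap on this scale, with a ratio of 6.50, although no value rests on more than 41 counts. In log2 the ratio was 2.70, beside the same median of 1.44 over 889 names. Its rank was between 236 and 353 in testis and between 376 and 423 in ovary.

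**Figure D1:**
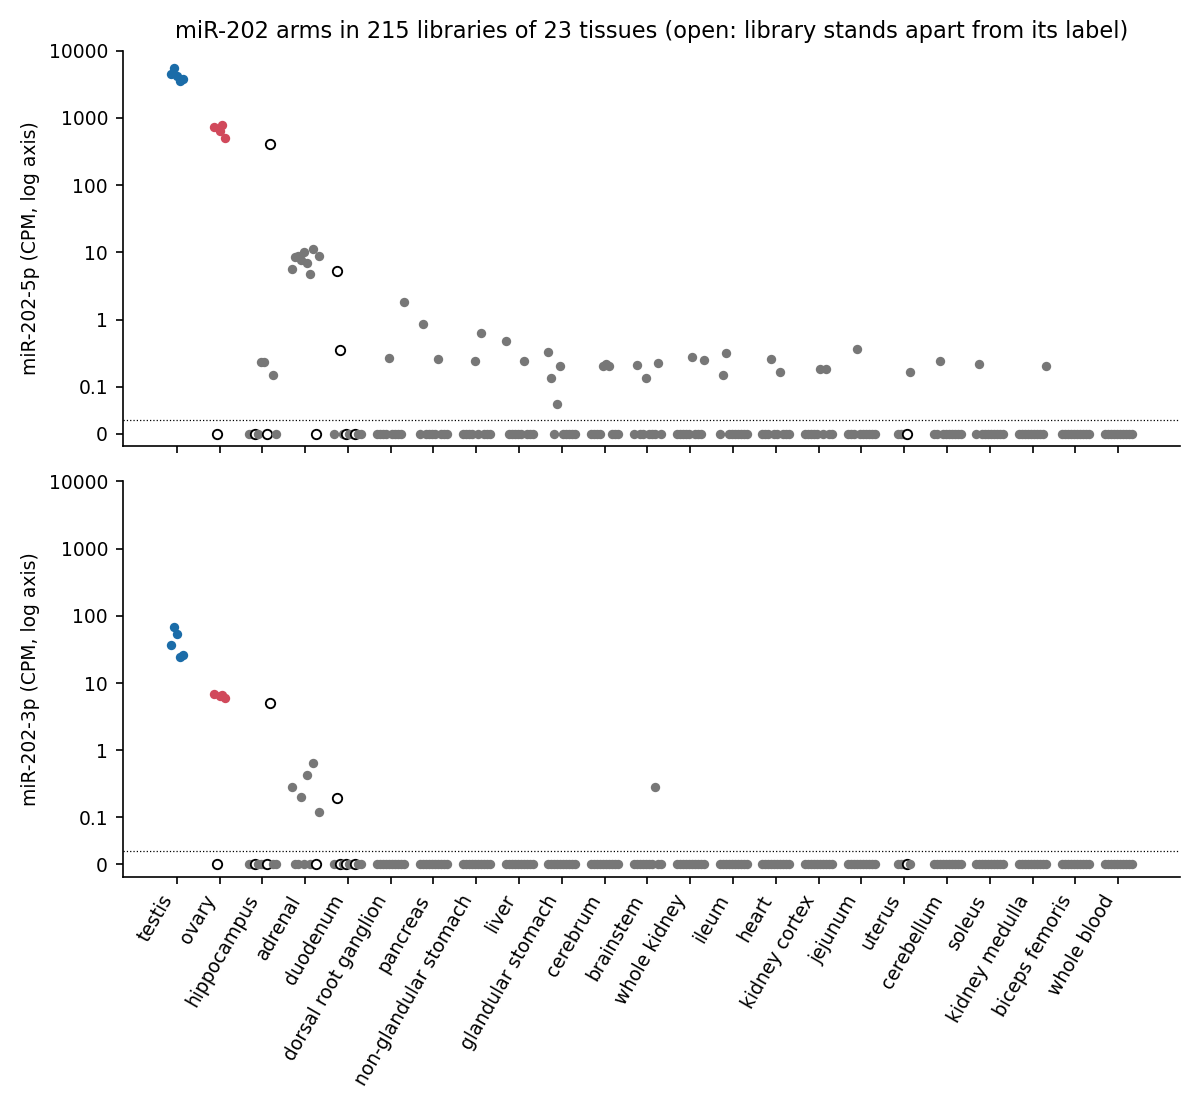
miR-202-5p (top) and miR-202-3p (bottom) in CPM on a log axis, 1 point per library, in the 23 tissues. Open points are the 10 libraries that stood apart from their label, and points under the dotted line are at 0. Testis lies above ovary in both arms, adrenal is the next tissue for miR-202-5p, and the open hippocampus point of rat 7 lies near the ovaries.

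The adrenal gland came next for miR-202-5p and was clearly separated from what followed. In 9 of its 10 libraries the counts were between 21 and 79, or 4.76 to 11.2 CPM (mean 8.09 ± 2.05, n = 9), below every ovary and above every other library that matched its label. The remaining adrenal library, of rat 8, stood apart from its label and held 0 counts. miR-202-3p reached 12 counts in the 9 adrenal libraries together. The adrenal cortex shares its embryonic origin and its steroid synthesis with the somatic cells of the gonads, which is given here as background.

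Outside these 3 glands miR-202 was near or below the limit of detection. In the 187 libraries of the other 20 tissues that matched their labels, 153 had 0 counts of miR-202-5p, 32 had 1 or 2, and 2 had more. A count of 0 allows up to 3 counts. The exceptions were 6 counts (0.633 CPM) in the non-glandular stomach of rat 6 and 5 counts (1.80 CPM) in 1 of the technical libraries of dorsal root ganglion. All 187 libraries together gave 0.0529 CPM of miR-202-5p and 1 count of miR-202-3p. Whole blood and biceps held no count of either arm, and the ranges of neighbouring tissues in this low part of the order overlapped. Their runs in a sequencing lane shared with a testis library gave 0.0639 CPM and those in other lanes 0.0488 CPM. A second split set apart lanes with any library over 100 CPM, so also those of ovary and of the hippocampus of rat 7. It gave 0.0653 CPM in such lanes and 0.0414 CPM in the rest. The adrenal values were 9.93 CPM in lanes shared with a testis library and 7.06 CPM in the others. By the second split they were 9.82 and 7.00 CPM, so that adrenal stood far above the other tissues in each kind of lane.

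The hippocampus library of rat 7 was the clear exception among the libraries that stood apart. It held 2262 counts of miR-202-5p (414 CPM) and 28 of miR-202-3p (5.12 CPM), while 6 of the 10 hippocampus libraries held no count of miR-202-5p, and its profile correlated best with ovary. The summed CPM of 2 brain miRNAs (miR-124-3p and miR-9a-5p) was 25.8 there and 43701 to 50704 in the 7 hippocampus libraries that matched their label. The duodenum library of rat 11 held 27 counts of miR-202-5p (5.23 CPM) and 1 of miR-202-3p, within the adrenal range, and its profile correlated best with adrenal. The reverse was seen in the ovary library of rat 11, with 0 of 1817990 counts for both arms. In that library the gut and kidney epithelial miRNAs (miR-192-5p, miR-194-5p and miR-215) summed to 420721 CPM, against 336 to 539 CPM in the ovaries of rats 7 to 10. Whether samples were exchanged was not tested beyond these values.

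Testis and ovary were then compared in an edgeR quasi-likelihood fit over 206 libraries with upper quartile scaling, which sets each library by the 75th percentile of its counts instead of the total. On this scale miR-202-5p was 832 to 1601 CPM in testis (mean 1190 ± 275) and 337 to 584 CPM in ovary (478 ± 103), still without overlap. miR-202-3p was 5.57 to 20.3 CPM in testis and 3.43 to 5.74 CPM in ovary, and there the groups overlapped. The fitted testis-over-ovary log2 difference was 1.35 below the log2 ratio of the mean CPM for each arm.

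**Figure D2:**
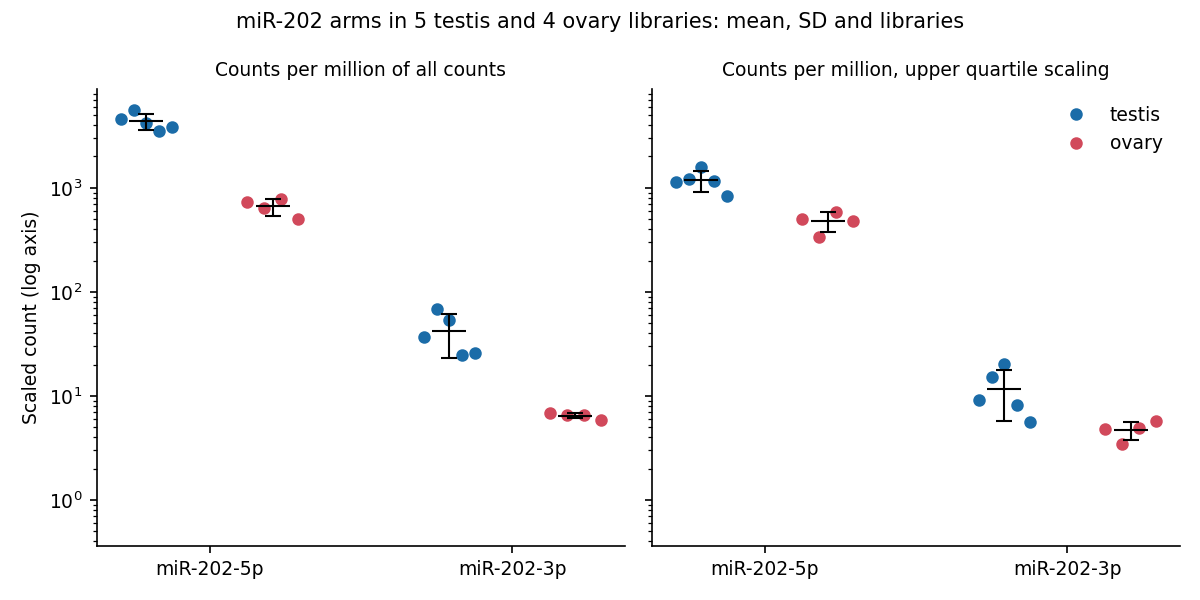
miR-202-5p and miR-202-3p in each testis and ovary library, as CPM of all counts and after upper quartile scaling, with the mean and SD. The 5 testes lie above the 4 ovaries on both scales for miR-202-5p, whereas the groups meet for miR-202-3p after scaling.

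In this fit the log2 difference of miR-202-5p, testis over ovary, was 1.37 (SE 1.04, 95% interval -0.69 to 3.43, 2.59-fold, edgeR adjusted p = 0.404). That of miR-202-3p was 1.35 (SE 1.22, 2.56-fold, edgeR adjusted p = 0.517). Neither arm passed the threshold of 0.05, while 197 of 1629 names (12.1%) were called higher in testis and 254 (15.6%) higher in ovary. The size of the error turned on libraries labelled as other tissues, because all tissues share 1 estimate of the spread. Without the hippocampus library of rat 7 the SE of miR-202-5p fell to 0.692 (log2 difference 1.38, edgeR adjusted p = 0.142). Without all 10 libraries that stood apart it was 0.477, and miR-202-5p passed with a log2 difference of 1.39 (edgeR adjusted p = 0.0153), whereas miR-202-3p at 1.34 did not (edgeR adjusted p = 0.219). Of all names 14.1% were then called higher in testis and 17.2% higher in ovary. In a fit of the 9 gonadal libraries alone both arms passed, at 1.56 (SE 0.162, edgeR adjusted p = 8.64e-06) and 1.52 (SE 0.326, edgeR adjusted p = 0.00155), with 29.6% of 398 names called higher in testis and 42.5% higher in ovary. With the rat as a block, which pairs tissues of the same animal, the log2 differences were 1.08 (edgeR adjusted p = 0.763) for miR-202-5p and 1.94 (edgeR adjusted p = 0.184) for miR-202-3p. With the block and without the 10 libraries, miR-202-5p was 1.11 (edgeR adjusted p = 0.206) and miR-202-3p 1.81 (edgeR adjusted p = 0.0732). Each of these log2 differences was positive, and 388 names had a larger one than miR-202-5p in the fit of 206 samples.

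The let-7 and miR-98 family, whose members restrain growth and stemness factors and share the first seed bases with miR-202-3p, lay on the other side of this contrast. All 9 names were tested, 9 were called higher in ovary and 0 higher in testis, beside 15.6% of 1629 names called higher in ovary. Their median log2 difference was -1.92, beside 0 over all names of this fit. In the fit of the 9 gonadal libraries alone, 42.5% of 398 names were called higher in ovary, and the median over these names was -0.174. let-7f-5p averaged 8043 CPM in testis and 11017 CPM in ovary, let-7c-5p 4135 and 7379 CPM, and let-7a-5p 3644 and 4838 CPM. By CPM alone the median of the 9 names was -0.56, beside 1.44 over the 889 names given above. By CPM let-7g-5p was 1.48-fold higher in testis, so that its direction depended on the scaling.

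The rats were also compared by sex in the 19 tissues sampled from both. miR-202-5p passed the filter on low counts in this fit and miR-202-3p did not. With all libraries miR-202-5p was called in 1 of 19 tissues, where 1.49% of all names were called over the 19 tissues together. This was hippocampus, where females averaged 82.7 CPM and males 0.0932 CPM (log2 difference 10.3, edgeR adjusted p = 9.18e-07). There 9.8% of 1122 names were called, and the library of rat 7, described above, was among the females. Without the libraries that stood apart edgeR called it in 0 of 19 tissues, with 2 tissues at an unadjusted p under 0.05, and DESeq2 called 0 as well. In the adrenal, the non-gonadal tissue with most miR-202-5p, females averaged 6.87 CPM and males 7.69 CPM (log2 difference -0.37, edgeR adjusted p = 1), and 4.28% of names were called there. With the adrenal library of rat 8 left out among those that stood apart, the log2 difference was -0.09 (edgeR adjusted p = 1).

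The ovarian level of miR-202 was set beside that of germ-cell miRNAs of the testis. The 12 markers listed for these cells, among them the miR-34b/c and miR-449a miRNAs and several of the X-linked miR-743 and miR-880 group, summed to 272380 to 392075 CPM in testis and 2805 to 4527 CPM in ovary. The ratio of ovary to testis ran from 0.942 to 2.00% over the 12 markers, with a median of 1.49%. That of miR-202-5p was 16.1% and that of miR-202-3p 17.7%, taken over the same libraries. The hippocampus library of rat 7 held 4557 CPM of the same markers. Sums of this size were not particular to the gonads. They were 1059 to 4647 CPM in brainstem and 523 to 2820 CPM in the 7 hippocampus libraries that matched their label. In ovary miR-34c-5p alone had a median of 2672 CPM, so the sum mostly reflects 1 marker there. The single markers differed more than the sums. Each ovary of rats 7 to 10 held counts of all 12 markers, with 0 of them absent. In brainstem 1 to 8 markers per library were at 0, and in those 7 hippocampus libraries 4 to 9. The part of germ cells or of shared sequencing lanes in the ovarian level was not tested.

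By tissue pattern the names most like miR-202-5p were miR-881-3p, miR-463-5p, miR-871-3p, a joint name containing miR-878-5p, and miR-743b-3p, with Pearson r of 0.953, 0.95, 0.948, 0.945 and 0.940. For miR-202-3p they were the same joint name, miR-743a-3p, miR-743b-5p, miR-871-5p and miR-471-5p, with r of 0.996, 0.995, 0.993, 0.992 and 0.991. These means kept the libraries that stood apart under their labels. Without them the joint name came first for both arms, with r of 0.959 and 0.997, miR-881-3p was at place 3 and miR-743b-3p at place 6 for miR-202-5p, and miR-743b-5p, miR-871-5p and miR-471-5p were at places 6, 7 and 9 for miR-202-3p. The lower places in this order thus depended on those libraries. The likeness was taken over 23 tissue means of log2(CPM + 1) among 774 candidate names. The means of names that are near 0 in most tissues share this floor, and the arms themselves reached 0.944 with each other. Adrenal was where the partners of miR-202-5p parted from it, since miR-881-3p had 0.359 CPM there and 140 CPM in ovary.

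The balance between the arms did not differ between the gonads beyond the spread over rats. miR-202-5p made up 99.08 ± 0.285% of the counts of both arms in testis and 99.01 ± 0.143% in ovary. The difference of 0.0626 percentage points gave p = 0.683 in an exact two-sided permutation test. Pooled by tissue, miR-202-3p was 0.965% of both arms in testis (95% Wilson interval 0.795 to 1.17), 0.961% in ovary (0.806 to 1.15) and 2.56% in adrenal (1.47 to 4.43, 12 of 468 counts). The adrenal interval lies above both others but covers counting error only, and 5 of the 9 adrenal libraries held the 3p arm at all.

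The gonads differed most clearly in where miR-202-5p ended. Taking the most counted sequence as the reference, forms with a shorter 3′ end were 46.6%, 50.1%, 47.9%, 45.9% and 50.1% of the counts in the testes of rats 2 to 6 (mean 48.1 ± 1.95%). In the ovaries of rats 7 to 10 they were 19.5%, 23.0%, 16.6% and 22.8% (mean 20.5 ± 3.03%). The groups lay far apart, with a difference of 27.6 percentage points. Forms with a longer 3′ end went the other way, at 4.5 ± 0.758% in testis and 11.1 ± 1.20% in ovary. The most counted sequence itself was 38.9 ± 9.83% in testis and 60.7 ± 2.27% in ovary.

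Each of these measures separated the 5 testes from the 4 ovaries completely. The exact two-sided permutation test gave p = 0.0159 for each, the smallest that 5 against 4 libraries allow, and 0.0265 after adjustment over the 10 measures tested in both arms. By position, the 3′ end 1 base short of the reference held 34.8% in testis and 18.3% in ovary. The end 2 bases short, where the RefSeq form ends, held 12.9% and 2.14%, and the reference end held 47.4% and 68.4%. The end 1 base beyond held 4.05% and 9.63%. The measure depends on its reference. Counted from the 19-base RefSeq form, which few reads fall short of, the difference in shorter ends was 0.461 percentage points and that in longer ends -11.2 (exact permutation, adjusted p = 0.0317 for each). The profile by position was shifted towards shorter ends in testis, while the seed stayed as printed above for these forms.

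**Figure D3:**
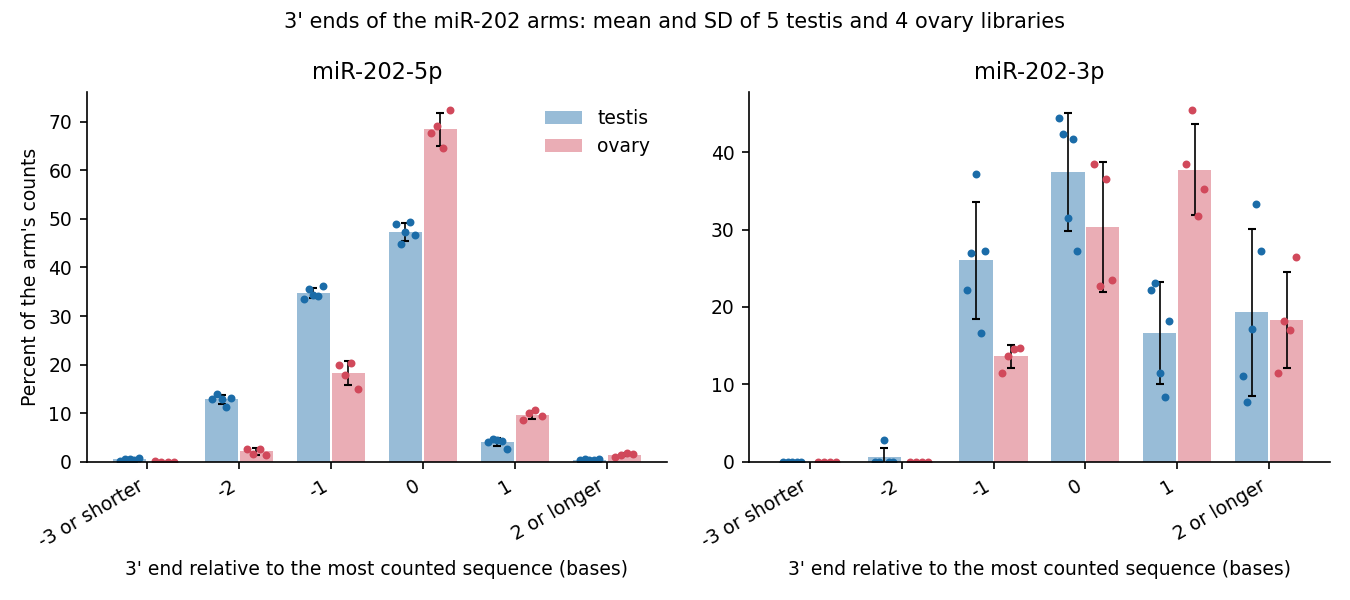
Percent of the counts of each arm by the position of the 3′ end relative to the most counted sequence, in testis and ovary. Bars are means over rats, error bars the SD and points the single libraries, and the testis bars of miR-202-5p exceed those of ovary at positions short of the reference and fall below them at and beyond it.

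Added bases contributed to the longer ovarian forms. Untemplated 3′ tails, bases that are not in the hairpin, were on 2.37 ± 0.382% of miR-202-5p counts in testis and 7.43 ± 0.848% in ovary (exact permutation p = 0.0159, adjusted 0.0265). The printed 22-base form with an added A held 0.951% in testis and 4.05% in ovary. The form with an added T held 0.121% and 1.14%, and the templated form with G 2.53% and 4.02%. All 3 were thus the more frequent in ovary, the tailed ones by the larger ratio. Whether tails of other miRNAs differ between the gonads as often was not tested.

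A shift of 3′ ends between testis and ovary was common among miRNAs, so the values of miR-202-5p were set beside those of others. In all, 73 names had at least 200 counts in each of the 9 gonadal libraries, the member included. Shorter 3′ ends were more frequent in every testis than in every ovary for 36 of them (49.3%), and the reverse held for 8 (11%). The median difference was 2.26 percentage points. Only 1 name, miR-100-5p, picked after its value was seen, had a larger difference (29.6) than the 27.6 of miR-202-5p. For longer ends, 36 names (49.3%) were higher in every ovary and 6 (8.22%) in every testis, with a median of -1.89 and 20 names below the -6.62 of miR-202-5p. The direction was therefore the frequent one, and the size of the shortening was near the top. The share of the most counted sequence and that of tails were not set beside other names.

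**Figure D4:**
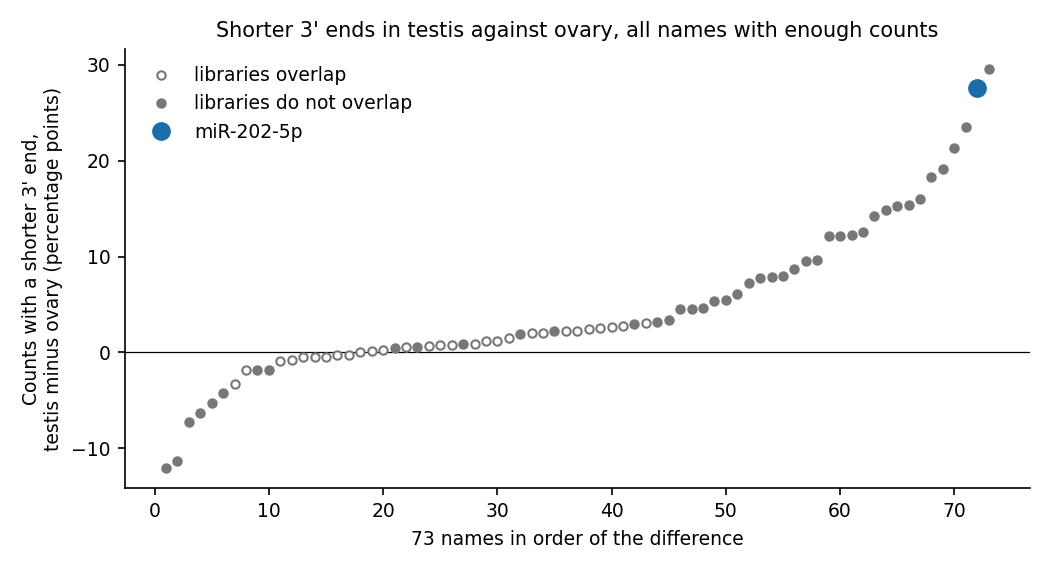
Testis minus ovary difference in the percent of counts with a shorter 3′ end, in percentage points, for the 73 names with at least 200 counts in each gonadal library, ranked. miR-202-5p is second from the top at 27.6, and the median is 2.26.

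Under other labels than testis and ovary, the ends of miR-202-5p could be read in adrenal and in the library labelled hippocampus of rat 7. The profile of the latter correlated at 0.972 with ovary and at 0.638 with hippocampus, so its ends are not taken as those of brain tissue. In adrenal 27.6% of 456 counts had a shorter 3′ end (95% Wilson interval 23.7 to 31.9), and in the hippocampus library 26.7% did (24.9 to 28.5). Both lie between the testes and the ovaries and nearer to the ovaries. Untemplated tails were on 6.36% and 6.81% of the counts, within or near the ovarian range of 6.46 to 8.45%.

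For miR-202-3p the ends were read on few counts, and their differences did not hold under each alternative. Shorter 3′ ends made up 16.7 to 40.0% in testis (mean 26.6%) and 11.5 to 14.7% in ovary (mean 13.6%), and longer ones 36.0% and 56.0% on average (exact permutation p = 0.0159, adjusted 0.0265, for each). The most counted form, the shared 5′ end and the tails did not pass, with means of 21.8% and 23.9%, 69.5% and 83.6%, and 10.1% and 16.3%. Each library held between 11 and 41 counts, and on the flow cell that held a run of all 9 libraries the difference in shorter ends was 4.00 percentage points and that in longer ends turned to 6.33 (exact permutation, adjusted p = 0.873 for each). Counted from the RefSeq form, the difference in longer ends was 0.994 (exact permutation, adjusted p = 0.937). The shortened form of 19 bases averaged 19.6% in testis and 8.49% in ovary, and the RefSeq form of 21 bases 11.9% and 23.9%.

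The 5′ end, which sets the seed, did not separate the gonads. The shared 5′ end held 82.5 ± 22.0% of miR-202-5p counts in testis and 92.0 ± 0.187% in ovary (exact permutation, adjusted p = 0.889), and the large SD came from rat 5 at 43.2%, beside 91.8 to 93.4% in the 4 other testes. Without rat 5 the difference was 0.373 percentage points. Among the 73 names, other 5′ ends were more frequent in every testis than in every ovary for 13 (17.8%) and the reverse for 0. A start 1 base upstream gives the seed UUCCUAU, shared with no other RefSeq name. It held 6.57 to 7.93% in testis rats 2, 3, 4 and 6, 25.5% in rat 5 and 7.62 to 8.23% in ovary. Its most counted sequence held 4.40 ± 3.96% in testis (2.43 to 11.5%) and 4.45 ± 0.182% in ovary (4.24 to 4.67%).

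The low value of rat 5 for the shared 5′ end belonged to 1 sequencing run. In 1 of its 2 runs 65.9% of 1429 miR-202-5p counts had another 5′ end, whereas the other run gave 11.8% and the remaining 16 gonadal runs 5.04 to 9.80%. The share whose first 12 bases differed from those of the most counted sequence was 66.1% for miR-202-5p in that run and 63.2% in the median over the 73 names, so the excess was not particular to miR-202-5p. The first base matched nothing in the hairpin in 36.5% of the miR-202-5p counts of that run, and was an extra G in 337 counts. The most counted form with the added G was seen in rat 5 alone, with 165 counts.
extra G at the 5′ end, rat 5: gTTCCTATgcatatacttcttt

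**Figure D5:**
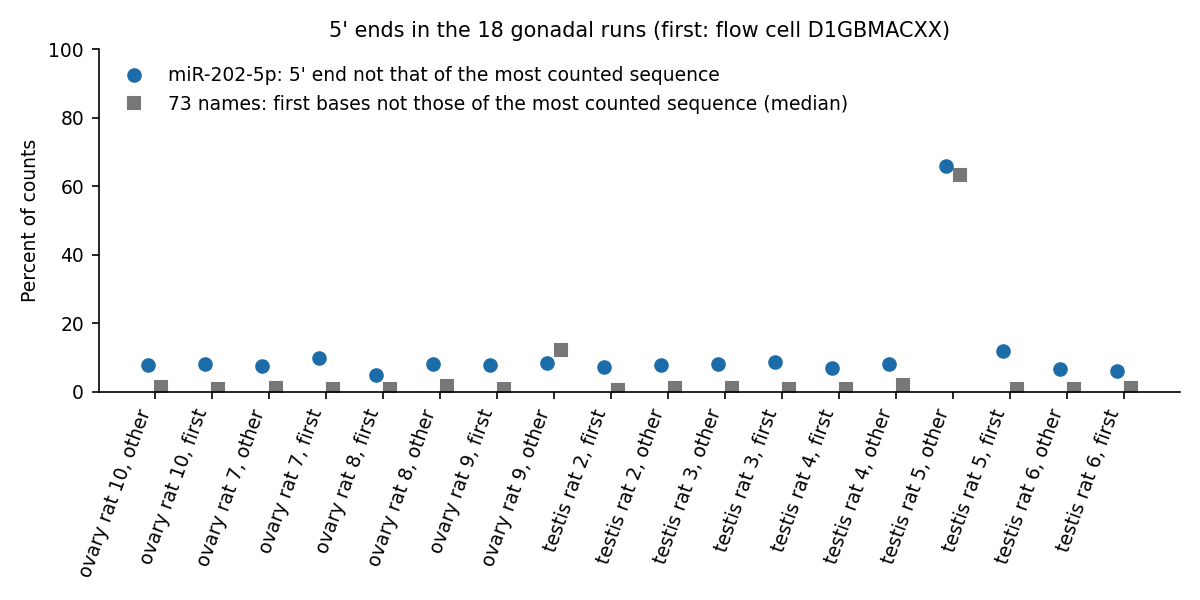
Percent of miR-202-5p counts with another 5′ end than the most counted sequence, and the median share over 73 names whose first 12 bases differed from their most counted sequence, in each of the 18 gonadal runs. The second run of testis rat 5 stands at 65.9% for miR-202-5p and 63.2% for the median, and the 16 runs of the other rats at 5.04 to 9.80% for miR-202-5p.

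Single-base differences inside miR-202-5p were rare. Positions are counted from 1 at the 5′ end of the most counted sequence. C9T was on 0.528 ± 0.135% of the counts in testis (0.350 to 0.670%) and on 0.107% in ovary (0.0463 to 0.182%). The ranges did not overlap, and no test was made since this position was picked after its values were seen. Position 10 differed from A in 7.71% of the counts of ovary rat 9, and A10G was found on 166 ovarian counts in all. Of them 165 came from 1 run of rat 9, in which 8.92% of the counts differed from A at position 10 and the median over the 73 names was 10.6% at the same position. In the other gonadal runs miR-202-5p differed there in at most 29 of 4642 counts.

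Runs on different flow cells gave like levels. On the flow cell with a run of every gonadal library miR-202-5p was 3429 to 6115 CPM in testis and 494 to 737 CPM in ovary, and on the others 3562 to 5558 CPM and 501 to 789 CPM. Adrenal was 5.45 to 11.2 CPM and 4.03 to 12.0 CPM. The order testis, ovary, adrenal held without overlap within both sets of runs.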

How the data were processed

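The authors deposited raw read counts per miRNA name and per isomiR sequence, 1 column per run. Per the labels and methods, adaptors were removed with cutadapt 1.4.1, identical reads collapsed and reads assigned with miRDeep2 to precursors of miRBase release 20. A read that fitted several precursors carries a joint name, so that near-identical miRNAs such as let-7 are split in part, and no molecular identifiers were used.

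Runs of a library were summed, leaving out runs that repeated a lane, and CPM was taken over all names. Samples were grouped by the tissue and rat in the labels. A library stood apart where its median correlation of log2(CPM + 1) with another tissue, over names with a mean of at least 1 CPM, exceeded that with its own by more than 0.05. edgeR 4.0.16 (R 4.3.3, quasi-likelihood test, upper quartile scaling from names passing filterByExpr on tissue, Benjamini-Hochberg adjustment, threshold 0.05) was fitted over all tissues, without the ovary of rat 11. DESeq2 1.42.0 was an alternative. The scripts were tested on simulated data. Tissues of the same rat are paired by the labels, so the alternative with a replicate block took the rat as block. Testis and ovary come from different rats and share no number, and so the block bears on their contrast only through other tissues. Shares within a library were compared by exact two-sided permutation tests (scipy 1.17.1), adjusted over the 10 isomiR measures. isomiRs were placed on the RefSeq hairpin. Intervals and floors of 3 counts cover counting error only. Named miRNAs were both arms, the 5 names closest to each by tissue pattern among names of at least 10 CPM in their highest tissue, the 3 let-7 or miR-98 names highest in the gonads, and markers where a library stood apart. let-7g-5p, miR-100-5p and the joint let-7 names given were added after their values were seen. Members and lists were chosen with earlier results of these data known. Alternatives left out the libraries that stood apart, each rat in turn, the filter or single flow cells, and those on libraries that stood apart were chosen after seeing the data.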

Additional observations from a re-analysis of the deposited data

Results flagged for a closer look

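In 10 of the 35 groups examined, the highest or lowest library lay far from the others by Dixon's criterion. For normally distributed values chance meets it in about 1 group of 20. Some groups of levels are not of that kind, such as dorsal root ganglion and non-glandular stomach with 8 of 10 libraries at 0. The count of 10 is therefore not compared with that rate. For levels, these were miR-202-5p in the hippocampus of rat 7 (414 CPM), with miR-202-3p in the same library (5.12 CPM), in the duodenum of rat 11 (5.23 CPM), in 1 technical library of dorsal root ganglion (1.80 CPM) and in the non-glandular stomach of rat 6 (0.633 CPM). The first 2 libraries were among those whose profile resembled another tissue. The last 2 values rest on 5 and 6 counts.

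For isomiRs, testis rat 5 stood out in the share of the most counted sequence of miR-202-5p (21.5%) and of its 5′ end (43.2%), and in the share of the 5′ end of miR-202-3p (25%), which rests on 12 counts. A base other than A at position 10 of miR-202-5p was found in 7.71% of the counts of ovary rat 9 and in 0.181% of those of testis rat 4. The values of testis rat 5 and ovary rat 9 each came from 1 run in which the other miRNAs moved as well.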

How the results depend on the processing

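Testis was above ovary for both arms under every alternative run. The log2 difference of miR-202-5p ran from 1.24 to 1.51 when each gonadal rat was left out (edgeR adjusted p 0.375 to 0.513), and that of miR-202-3p from 1.09 to 1.56. miR-202-5p passed the threshold with the gonads alone (1.56), without the libraries that stood apart (1.39, and 1.46 with TMM) and in the exact permutation test of log2(CPM + 1) at 2.72 (p = 0.0159, the smallest possible). miR-202-3p passed with the gonads alone (1.52) and in the exact permutation test (2.42). Both permutation tests were on the CPM scale, where the median log2 ratio of 889 names was 1.44. Without the libraries that stood apart, miR-202-5p was 1.49, 1.39, 1.30, 1.44 and 1.55 when testis rats 2 to 6 were left out in turn and 1.25, 1.59, 1.47 and 1.38 for ovary rats 7 to 10 (edgeR adjusted p 0.00838 to 0.0618), and only without ovary rat 7 was the threshold missed. With TMM scaling the values were 1.66 and 1.63 (edgeR adjusted p = 0.261 and 0.366), and with DESeq2 2.36 and 2.32, where the median of all names was 1.23. Names called numbered 451, 287 with the gonads alone, and 401 to 444 without single rats. Those higher in testis and in ovary numbered 197 and 254, with TMM 229 and 231, without a filter 216 and 165, with the ovary of rat 11 kept 126 and 269, and with DESeq2 199 and 134. The rat as a replicate block called 371 names, changed neither arm's call in the fit of all libraries and left the let-7 count at 9, which was 8 to 9 without single rats. By mean level, upper quartile and TMM scaling gave 1190 and 1490 CPM for miR-202-5p in testis and 478 and 499 in ovary, and 11.6 and 14.7 against 4.71 and 4.94 for miR-202-3p.

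Between the sexes, calls numbered 3 without a filter, 2 with all runs summed, 8 with DESeq2, and 0 with edgeR and 0 with DESeq2 without the libraries that stood apart, and 1 to 2 without single rats. Apart from hippocampus, the DESeq2 calls were in cerebellum, cerebrum, heart, jejunum, kidney medulla, soleus and non-glandular stomach. Each of these tissues held 1 to 8 counts of miR-202-5p in all and none in 1 sex. The fitted log2 differences there were -19.8 to -16.3 or 17.9 to 18.7, and 9 to 28 of 1122 names were called. The arm share difference ran from -0.00223 to 0.144 without single rats, below 0 without testis rat 6.

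With 5 against 3 libraries the smallest p of the exact permutation test is 0.0357. As not all measures reached it, it became 0.0595 after adjustment. No isomiR measure passed without an ovary rat, and the count passing ran from 0 to 6. For miR-202-5p the differences without single rats ran from 26.3 to 28.5 (shorter ends), -7.12 to -6.16 (longer ends), -5.39 to -4.73 (tails), -23.3 to -17.4 (most counted) and -12.2 to 0.373 (5′ end). For miR-202-3p they were 9.64 to 15.5, -22.5 to -17.6, -8.30 to -4.47, -5.55 to 3.33 and -18.9 to -2.96. With the RefSeq forms as reference, the most counted share of miR-202-5p was 8.29 points higher in testis and the longer ends of miR-202-3p 0.994, since another sequence is then counted, and the difference in shorter ends of miR-202-5p was 0.461 in place of 27.6 and that in longer ends -11.2 in place of -6.62. For miR-202-3p, the flow cell shared by all gonadal libraries gave 4.00 (shorter), 6.33 (longer), 28.3 (5′ end) and 14 (tails), and the others -9.71 (tails) and 0.351 (most counted). With sequences of at least 10 counts the tail difference of miR-202-3p was 0. Depth limited miR-202-3p, at 11 to 41 counts per gonadal library.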
